A study of Mus musculus with 28 samples.

Results

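The 10 genes described here are inhibitors and subunits of the transcription factor NF-kB and 4 chemokine genes that it is known to control. They are Tnfaip3, Nfkbia, Nfkbie, Nfkb1, Nfkb2, Relb, Ccl2, Ccl7, Cxcl1 and Cxcl5, and they were taken by symbol from the 24079 rows of a table of raw read counts. All 10 passed the filter on low counts and were among the 15099 genes tested. The cells were RAS/DNP53-transformed mouse embryonic fibroblasts of strain C57BL/6x129Sv, and 28 libraries in 15 groups were used. RNA was taken in the morning after an evening treatment.

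The tagged cells were Ctag-Cyclin D1 clones 12 and 14. Each gave 1 library for each of 8 states, which were no treatment, leptomycin B at 20 ng/mL, and transfection with SCR, FLAG, HA, Qiagen, Nature or Life siRNA. FLAG and HA siRNAs are named for the tags, SCR is the control siRNA, and the Qiagen, Nature and Life siRNAs are directed against cyclin D1. Untagged-Cyclin D1 clones 18 and 25 were sequenced only after transfection, 3 libraries apiece, using the control and both tag siRNAs. Lines of clone 18 carrying mCherry/PURO or FLAG-mCherry-HA/PURO gave 3 libraries each, 2 with HA siRNA and 1 with FLAG siRNA. No untagged cell was left untransfected or given leptomycin B, so both of those treatments are read in clones 12 and 14 only. Each group is 1 or 2 libraries of clonal lines, so a replicate here is another clone or, in the mCherry lines, another numbered sample, and p-values measure the spread between these samples.

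NF-kB proteins are dimers that IkB proteins hold in the cytoplasm. Signals from cytokine and Toll-like receptors lead to destruction of IkB, after which the dimers enter the nucleus and switch on genes for chemokines, for IkB proteins themselves and for the ubiquitin-editing enzyme A20, so the pathway induces its own brakes. IkB-alpha carries NF-kB back out of the nucleus through the exportin encoded by Xpo1. Leptomycin B blocks that exportin, and is known to hold IkB-alpha in the nucleus.

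Among the brakes, Tnfaip3 encodes A20 (gene ID 21929, chr10:19000910-19015410), Nfkbia encodes IkB-alpha (18035, chr12:55489409-55492647) and Nfkbie encodes IkB-epsilon (18037, chr17:45555700-45563169). Nfkb1 encodes p105 and p50 (18033, chr3:135584655-135691969), Nfkb2 encodes p100 and p52 (18034, chr19:46300994-46312400), and Relb encodes a subunit that pairs with p52 (19698, chr7:19606217-19629438). Ccl2 (20296, chr11:82035577-82037452) and Ccl7 (20306, chr11:82045712-82047525) are neighbours and encode chemokines that attract monocytes. Cxcl1 (14825, chr5:90891245-90893121) and Cxcl5 (20311, chr5:90759298-90761625) lie in the other cluster and encode chemokines that attract neutrophils. Coordinates are those of whole genes in GRCm38.p6, the assembly of mm10.

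RefSeq promoter windows, from 250 bases before to 50 after a transcript start, were found by gene symbol for 5 of the 10 genes, Nfkb2, Nfkbia, Nfkbie, Tnfaip3 and Cxcl1. They are shown because these genes are known targets of the factor whose brakes and subunits are measured here. Capitals mark every match to the NF-kB consensus, a motif of 10 bases searched on both strands, and overlapping matches run together. Each window below reads 5′ to 3′ along its gene, in GRCm38.p6. The windows are Nfkbia chr12:55492598-55492897 on the minus strand, Tnfaip3 chr10:19015361-19015660 on the minus strand, Cxcl1 chr5:90890995-90891294 on the plus strand, Nfkbie chr17:45555450-45555749 on the plus strand and Nfkb2 chr19:46304487-46304786 on the plus strand.
Nfkbia: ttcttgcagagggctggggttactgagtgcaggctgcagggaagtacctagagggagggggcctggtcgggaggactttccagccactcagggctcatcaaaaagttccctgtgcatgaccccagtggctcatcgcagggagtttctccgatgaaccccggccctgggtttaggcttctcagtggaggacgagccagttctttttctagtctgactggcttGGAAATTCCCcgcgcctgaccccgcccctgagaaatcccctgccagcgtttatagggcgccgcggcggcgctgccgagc
Tnfaip3: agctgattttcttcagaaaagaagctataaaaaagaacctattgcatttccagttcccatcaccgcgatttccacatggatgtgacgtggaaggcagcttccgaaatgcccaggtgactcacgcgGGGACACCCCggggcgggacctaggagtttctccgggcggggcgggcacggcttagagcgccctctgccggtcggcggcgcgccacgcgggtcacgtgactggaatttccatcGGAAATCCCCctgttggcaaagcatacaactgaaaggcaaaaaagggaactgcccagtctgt
Cxcl1: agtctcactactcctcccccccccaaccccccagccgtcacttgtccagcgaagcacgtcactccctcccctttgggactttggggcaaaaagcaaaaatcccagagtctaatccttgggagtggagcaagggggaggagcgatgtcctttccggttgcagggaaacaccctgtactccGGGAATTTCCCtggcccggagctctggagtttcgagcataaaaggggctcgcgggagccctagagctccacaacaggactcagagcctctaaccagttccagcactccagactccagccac
Nfkbie: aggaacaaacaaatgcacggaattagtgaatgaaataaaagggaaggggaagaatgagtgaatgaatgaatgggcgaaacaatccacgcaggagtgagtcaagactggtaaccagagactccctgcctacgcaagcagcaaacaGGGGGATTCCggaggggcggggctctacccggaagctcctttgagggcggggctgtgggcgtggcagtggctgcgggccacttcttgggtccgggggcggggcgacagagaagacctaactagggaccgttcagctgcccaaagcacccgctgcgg
Nfkb2: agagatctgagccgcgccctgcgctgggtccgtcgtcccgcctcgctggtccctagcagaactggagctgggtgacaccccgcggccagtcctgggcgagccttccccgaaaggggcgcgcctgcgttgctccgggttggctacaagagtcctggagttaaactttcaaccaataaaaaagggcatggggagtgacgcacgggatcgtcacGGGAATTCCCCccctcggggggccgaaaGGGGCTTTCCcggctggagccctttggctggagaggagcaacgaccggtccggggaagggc

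The match in the Nfkbia window began 29 bases before the start. Those in the Tnfaip3 window began 125 and 12 bases before it, and that in Nfkbie 106 bases before it. In Cxcl1 a pair of matches on opposite strands overlapped, the first beginning 71 bases before the start. In the Nfkb2 window shown, overlapping matches began 39 and 38 bases before the start and a further one began 11 bases before it. Over all windows of the 5 genes, 7 of 8 held a match, and the one without was the second Tnfaip3 window. Of all 32851 mouse windows of this length, 4.51% held one. A match is a stretch of letters and shows no binding. Ccl2, Ccl7, Cxcl5, Nfkb1 and Relb are named only.

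Library totals ran from 26558256 to 81512769 counts. Values below are CPM, the usual counts scaled by library size, here with edgeR's TMM sizes. Clone 12 with SCR siRNA was the deepest library, yet counts were seen for only 14132 genes there, fewer than in any other. 4 libraries held over 2% of their counts in the ribosomal RNA gene Rn45s, HA siRNA of clone 12, Nature and Life siRNA of clone 14, and 1 mCherry line. Fibroblast markers summed to between 5160 and 12300 CPM, with Vim at 2770 CPM or more in every library, although Thy1 was at 0 in at least 1 library and Col1a1 was as low as 0.292 CPM. The 7 macrophage markers in the table summed to 2.44 to 6.88 CPM in all, Tyrobp was at 0 in every library, and lymphocyte markers summed to at most 0.239 CPM. The 5 epithelial markers summed to between 87.4 and 1960 CPM, mostly Krt18 (median 749 CPM), with Cdh1 at up to 40 CPM and Epcam at no more than 0.867 CPM. In the untreated, leptomycin B and SCR libraries of the tagged clones that sum ran from 122 to 970, 128 to 1180 and 112 to 1090 CPM, and its part in the results was not tested. Xpo1, whose product leptomycin B binds, stood at 701 and 635 CPM in untreated clones 12 and 14 and at 1238 and 1193 CPM with leptomycin B (log2 fold change 0.87 ± 0.15 SE, edgeR adjusted p = 0.00135).

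The subunit genes Nfkb1 and Nfkb2 spanned 2.21 and 2.17 times between the lowest and the highest of the 28 libraries. Nfkb1 ranged from 43.8 to 96.7 CPM with a median of 73.3, and Nfkb2 from 41.6 to 90.2 with a median of 66.7. Nfkbia ranged from 17.2 to 55.3 CPM. The other genes spread more widely, by 10.2 times between the lowest and the highest library in both Relb and Tnfaip3, 16.8 times in both Nfkbie and Cxcl1, 40.3 times in Ccl2 and 257 times in Ccl7. Cxcl5 reached no more than 25 counts in any library and was at 0 in 6, all of them siRNA libraries of clone 14, where a count of 0 allows at most 3 counts. Per kilobase of exon, the median level was highest for Ccl2 (43.6 CPM per kb), then Nfkbia (18.3), Ccl7 (16.4), Nfkb2 (14.5), Nfkb1 (6.08), Relb (3.78), Tnfaip3 (1.35), Cxcl1 (0.906), Nfkbie (0.731) and Cxcl5 (0.0885). In untreated cells alone the order began with Nfkb2 (14.5 CPM per kb), Nfkbia (11.9) and Ccl2 (10.6). Over the 28 libraries every pair of neighbours in the first order overlapped per kilobase except Nfkb2 and Nfkb1.

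**Figure D1:**
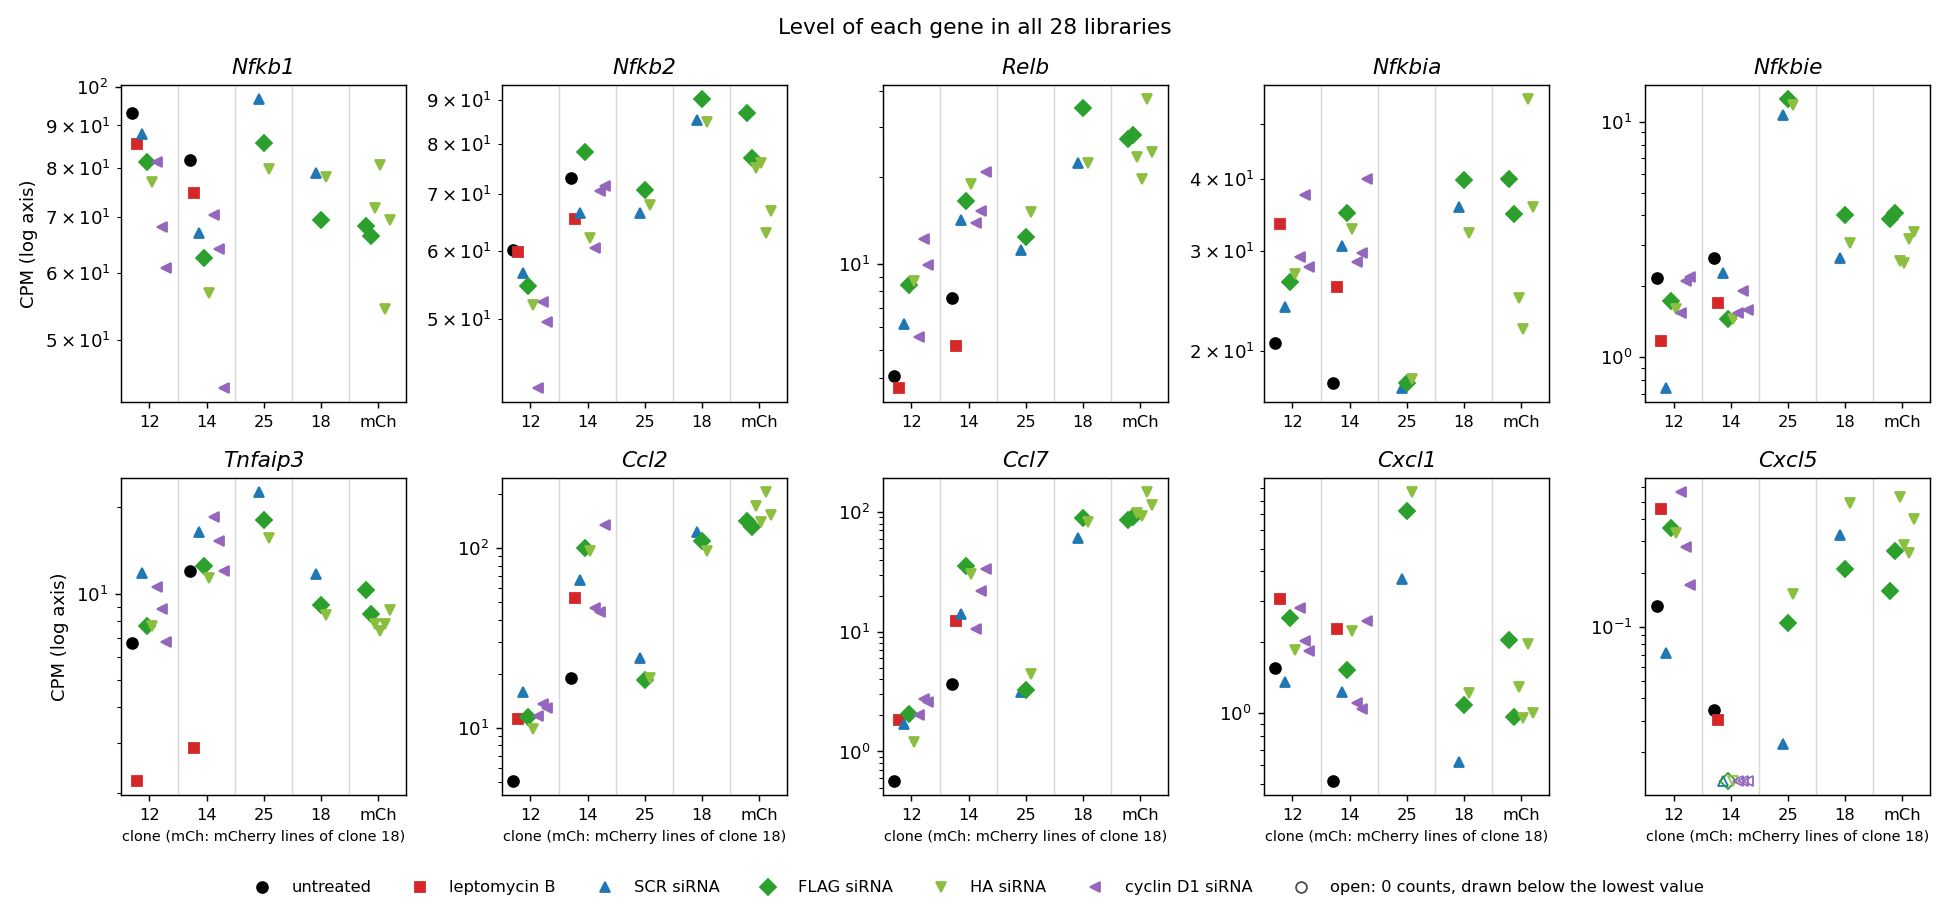
CPM of each gene (log axis) in all 28 libraries, placed by clone, with colour and shape giving the treatment and open symbols marking 0 counts. Ccl7 was highest in clone 18 and its mCherry lines. Ccl2 was highest there by median, but reached 134 CPM in clone 14 with Life siRNA, above all libraries of clone 18 itself. Nfkbie was highest in clone 25, and the 2 leptomycin B libraries were the lowest for Tnfaip3.

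Leptomycin B was compared with no treatment in clones 12 and 14, the question being how blocking nuclear export moves the brakes and the chemokines. Tnfaip3 fell, while Ccl2, Ccl7 and Cxcl1 rose, so 4 of the 10 genes were called at an adjusted p under 0.05, where 9.99% of all genes tested were (4.29% higher and 5.7% lower). The subunit genes and the IkB genes were not called by edgeR in this fit, while DESeq2 called Nfkbia as well. In bulk RNA, fewer cells that express a gene and less RNA per cell cannot be told apart. The median log2 fold change of the 10 genes was 0.28, against 0.03 over all genes tested, with 5 positive and 5 negative.

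Tnfaip3, the A20 gene, stood at 6.71 CPM in untreated clone 12 and 12.0 in untreated clone 14. With leptomycin B it stood at 2.21 and 2.89 CPM, on 83 and 191 counts. Both treated libraries lay below both untreated ones, 3.03-fold lower in clone 12 and 4.14-fold lower in clone 14. The fitted log2 fold change was -1.84 ± 0.17 (SE; edgeR quasi-likelihood adjusted p = 4.98e-06), and the call held without each of the 4 libraries in turn.

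Nfkbia, which encodes the IkB that shuttles through the exportin, went the other way in level. It stood at 20.7 and 17.5 CPM untreated and at 33.5 and 25.9 CPM with leptomycin B in clones 12 and 14, with no overlap between the groups. Its log2 fold change of 0.63 ± 0.20 missed the threshold (edgeR adjusted p = 0.0546) and passed it with DESeq2 (adjusted p = 0.0246), with a filter at a mean of 1 CPM (0.0419), with only the libraries of the comparison (0.000462) and without the leptomycin B library of clone 14 (0.0309), over a range of 0.000462 to 0.917 across all its alternatives. Nfkbie stood at 2.18 and 2.65 CPM untreated and 1.17 and 1.69 CPM treated, again with no overlap (log2 fold change -0.74 ± 0.35, edgeR adjusted p = 0.19). It was called with only the libraries of the comparison (0.0488). That fit and DESeq2 also called more genes over all than the edgeR fit of all libraries. With 2 libraries in each group, a lack of overlap carries little weight, here and for Cxcl1 below. The share of all genes without overlap was not counted.

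Ccl2, Ccl7 and Cxcl1 were higher with the drug in each clone. Taken as ratios, though, the untreated clones 12 and 14 differed more in Ccl2 and Ccl7 than the treatment moved either clone. Ccl2 stood at 5.09 CPM untreated and 11.3 treated in clone 12, and at 19.1 and 52.9 CPM in clone 14, so that treated clone 12 lay below untreated clone 14. Its log2 fold change, fitted within clones, was 1.30 ± 0.33 (edgeR adjusted p = 0.0188). Ccl7 stood at 0.569 and 1.84 CPM in clone 12 and at 3.68 and 12.4 CPM in clone 14, the same overlap, with a log2 fold change of 1.76 ± 0.40 (edgeR adjusted p = 0.00865).

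Cxcl1 stood at 1.56 and 0.516 CPM in untreated clones 12 and 14 and at 3.07 and 2.28 CPM with leptomycin B. The groups did not overlap, and the ratio was 1.97 in clone 12 and 4.43 in clone 14 (log2 fold change 1.44 ± 0.39, edgeR adjusted p = 0.0263). Cxcl5, from the same cluster, had 8 and 17 counts in clone 12 and 2 and 2 in clone 14, which is under the 3 counts that serve as a floor, and was not called. None of the 3 chemokine calls held without the leptomycin B library of clone 12 (edgeR adjusted p = 0.122 for Ccl2, 0.0539 for Ccl7 and 0.101 for Cxcl1) or without the untreated library of clone 14 (0.226, 0.224 and 0.272). The Cxcl1 call was lost without the leptomycin B library of clone 14 as well (0.0902), and the log2 fold changes stayed positive in all of these fits. The Ccl2 call was also lost with no filter on low counts (0.0503). Without the clone as a block, none of the 4 calls held, that of Tnfaip3 having a log2 fold change of -1.87 (edgeR adjusted p = 0.117).

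Among the subunits, Nfkb1 stood at 93.1 and 81.8 CPM untreated and 85.7 and 74.8 treated, and Nfkb2 at 60.2 and 73.0 untreated and 59.8 and 65.5 treated. Relb stood at 4.06 and 7.56 CPM untreated and 3.68 and 5.14 treated. In all 3 the groups overlapped, with log2 fold changes of -0.12, -0.08 and -0.36. The summed macrophage markers were 2.44 to 3.23 CPM in the untreated and 4.28 to 6.88 CPM in the leptomycin B libraries, with Tyrobp at 0 throughout, and their part in the chemokine values was not tested.

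**Figure D2:**
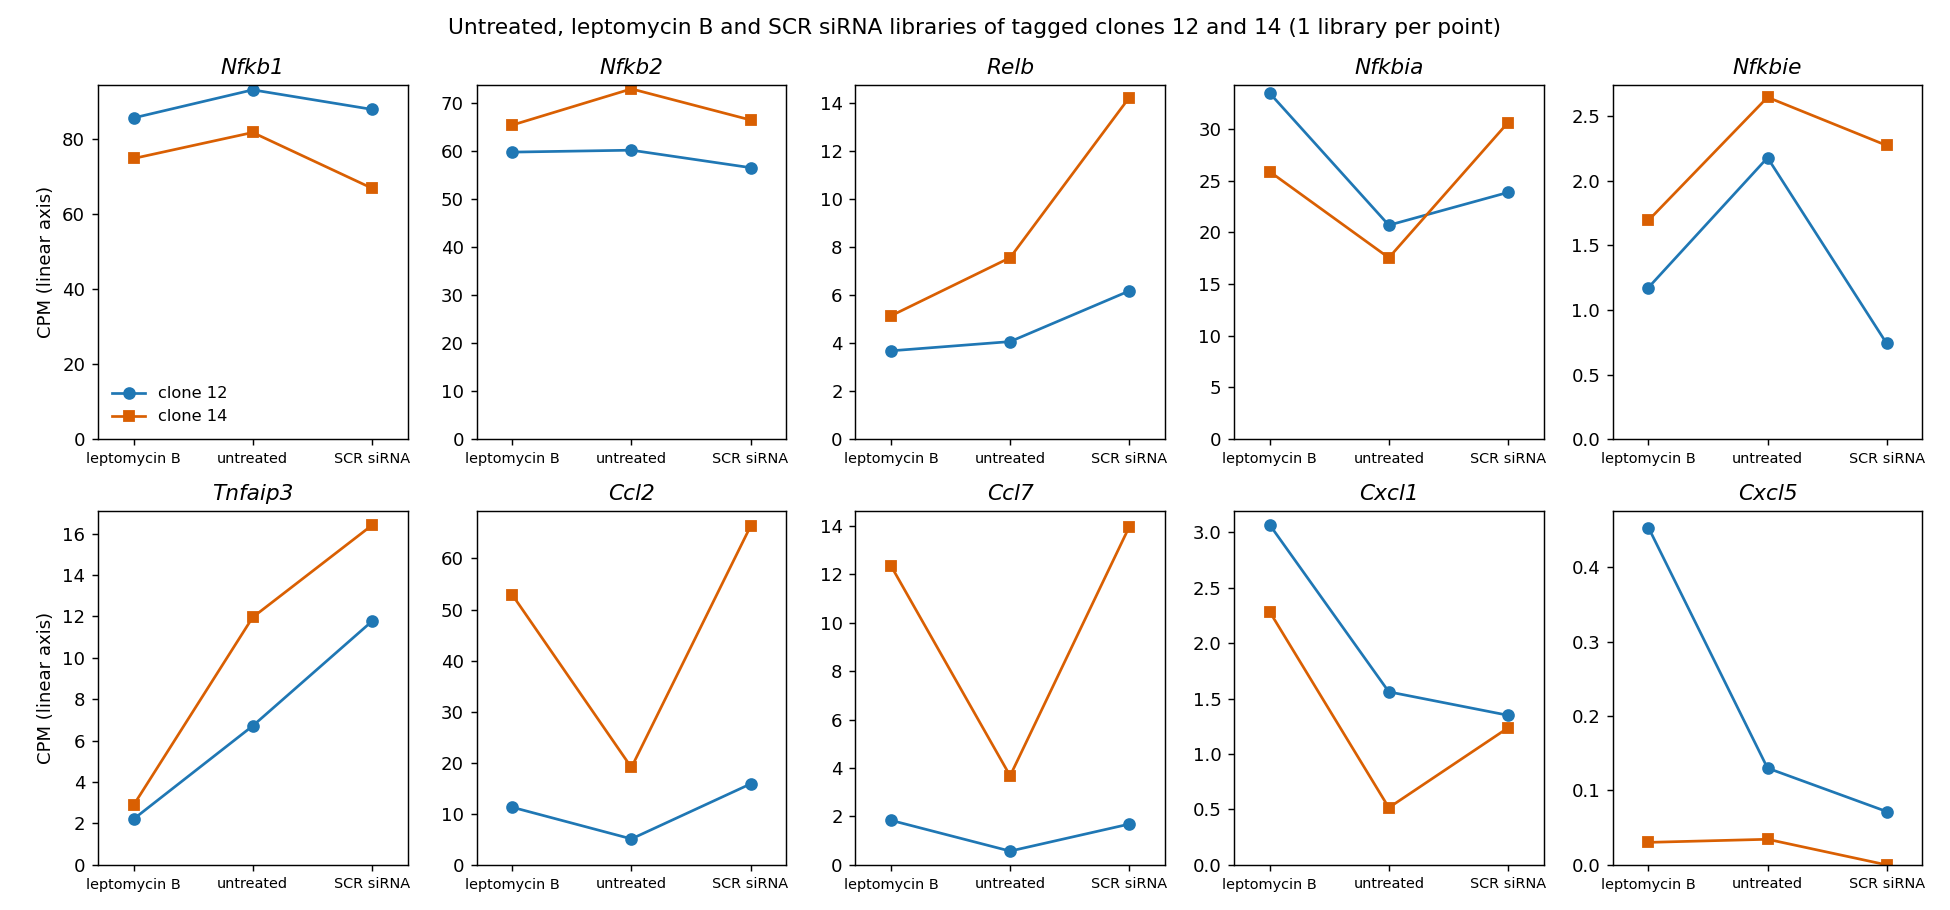
CPM of each gene (linear axis from 0) with leptomycin B, no treatment and SCR siRNA, 1 library per point, with a line for each of clones 12 and 14. Tnfaip3 lay below untreated with leptomycin B and above it with SCR siRNA in both clones, while Ccl2 and Ccl7 lay above untreated in both treatments.

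Transfection was read first from SCR siRNA against no treatment in the same clones. The brake Tnfaip3 and the chemokines Ccl2 and Ccl7 rose, 3 of 10 genes where 5.29% of all genes tested were called (1.68% higher and 3.61% lower), and none fell. This comparison shares its untreated libraries with the leptomycin B comparison, so the values are given side by side only. The labels give a date for the untreated and leptomycin B libraries of clone 12 alone, and the day of the experiment and transfection cannot be told apart.

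Tnfaip3 stood at 11.8 CPM with SCR siRNA in clone 12 and 16.4 in clone 14. That was 1.75 and 1.37 times the untreated level of the same clone, with a log2 fold change of 0.63 ± 0.16 (edgeR adjusted p = 0.027). The SCR value of clone 12 lay just under the untreated value of clone 14. The call was lost without either untreated library (edgeR adjusted p = 0.149 without clone 12 and 0.118 without clone 14), without the SCR library of clone 12 (0.178), and when only the 4 libraries were fitted (0.106).

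Ccl2 stood at 15.9 and 66.3 CPM with SCR siRNA, 3.12 and 3.48 times the untreated levels (log2 fold change 1.73 ± 0.33, edgeR adjusted p = 0.00671). Ccl7 stood at 1.68 and 14.0 CPM, 2.96 and 3.80 times those levels (1.84 ± 0.38, edgeR adjusted p = 0.0116). In both genes the SCR library of clone 12 lay below the untreated library of clone 14. Without the SCR library of clone 12 the edgeR adjusted p was 0.0781 for Ccl2 and 0.0733 for Ccl7, and without the untreated library of clone 14 it was 0.138 and 0.275. Cxcl1 stood at 1.35 and 1.24 CPM, below untreated in clone 12 and above it in clone 14, and was not called.

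Relb stood at 6.17 and 14.2 CPM with SCR siRNA, above untreated in both clones (log2 fold change 0.76 ± 0.24, edgeR adjusted p = 0.0707), and DESeq2 called it (adjusted p = 0.0244, the lowest of its alternatives, which reached 0.994). Nfkbia stood at 23.9 and 30.6 CPM (0.50 ± 0.20, edgeR adjusted p = 0.14). Nfkbie stood at 0.74 and 2.27 CPM (-0.76 ± 0.35, edgeR adjusted p = 0.186), the clone 12 value being the lowest of all 28 libraries. Nfkb1 and Nfkb2 differed from untreated by -0.19 and -0.11 on the log2 scale and were not called. Macrophage markers summed to 3.03 to 3.33 CPM in the SCR libraries.

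The 5 siRNAs with a target, averaged, gave a second comparison of transfected with untreated cells that does not use the SCR libraries. These siRNAs are named for the tags or directed against cyclin D1, so transfection and action on a target cannot be told apart here. Against no treatment, Relb, Nfkbia, Ccl2, Ccl7 and Cxcl1 rose and Nfkb1 fell, 6 of 10 genes where 30.5% of all genes tested were called (12.9% higher and 17.6% lower). The SCR and targeting comparisons share the untreated libraries. Each untreated library is the reference for all 5 siRNAs of its clone, so agreement over 10 libraries below is not 10 separate results. The share of all genes on one side of untreated in all 10 was not counted.

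Relb, the partner of p52, ranged from 5.56 to 12.2 CPM over the 5 siRNAs in clone 12 and from 13.9 to 21.0 in clone 14, above the untreated library of its clone in all 10 (log2 fold change 1.14 ± 0.20, edgeR adjusted p = 0.000932). Nfkbia ranged from 26.4 to 37.5 and from 28.6 to 40.1 CPM, also above untreated in all 10 (0.71 ± 0.16, edgeR adjusted p = 0.00452). Nfkb1 ranged from 60.8 to 81.5 and from 43.8 to 70.4 CPM, below untreated in all 10 (-0.41 ± 0.09, edgeR adjusted p = 0.0041). Relb and Nfkb1, which encode subunits of one family, thus moved in opposite directions.

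Ccl2 ranged from 9.82 to 13.6 CPM over the 5 siRNAs in clone 12 and from 44.0 to 134 in clone 14, and lay above untreated in all 10 libraries (log2 fold change 1.66 ± 0.29, edgeR adjusted p = 0.000786). Ccl7 ranged from 1.19 to 2.76 and from 10.4 to 35.3 CPM, above untreated in all 10 (2.46 ± 0.34, edgeR adjusted p = 0.000209). Cxcl1 was above untreated in all 10 as well (0.97 ± 0.32, edgeR adjusted p = 0.0306). Tnfaip3 was above untreated in 9 of 10, at 6.77 to 10.6 CPM in clone 12 and 11.3 to 18.5 in clone 14, and was not called (0.24 ± 0.12, edgeR adjusted p = 0.151).

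Without the untreated library of clone 14, the calls of Ccl2 (edgeR adjusted p = 0.0637), Cxcl1 (0.463), Nfkb1 (0.135) and Nfkbia (0.171) were lost, while those of Relb and Ccl7 held. Cxcl1 also lost its call without the Qiagen library of clone 12 (0.0524) and with only the libraries of the comparison (0.071).

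Leptomycin B was then set against SCR siRNA directly, since both raised the monocyte chemokines over untreated cells. Here too the day of the experiment and the treatment cannot be told apart. Tnfaip3 and Relb were lower with leptomycin B, 2 of 10 genes where 17.4% of all genes tested were called (9.6% higher and 7.78% lower), and none was higher. Tnfaip3, at 2.21 and 2.89 CPM against 11.8 and 16.4, was 5.55-fold lower (log2 fold change -2.47 ± 0.17, edgeR adjusted p = 1.14e-07), and this call held in all 10 alternatives. Relb, at 3.68 and 5.14 CPM against 6.17 and 14.2, was 2.18-fold lower (-1.12 ± 0.25, edgeR adjusted p = 0.00435), and its call was lost without the leptomycin B library of clone 14 (0.0959). Ccl2 and Ccl7 were not called apart (-0.42 ± 0.32 and -0.08 ± 0.36), which does not show that the treatments act alike on them. Cxcl1 differed by 1.04 ± 0.39 (edgeR adjusted p = 0.0717).

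**Figure D3:**
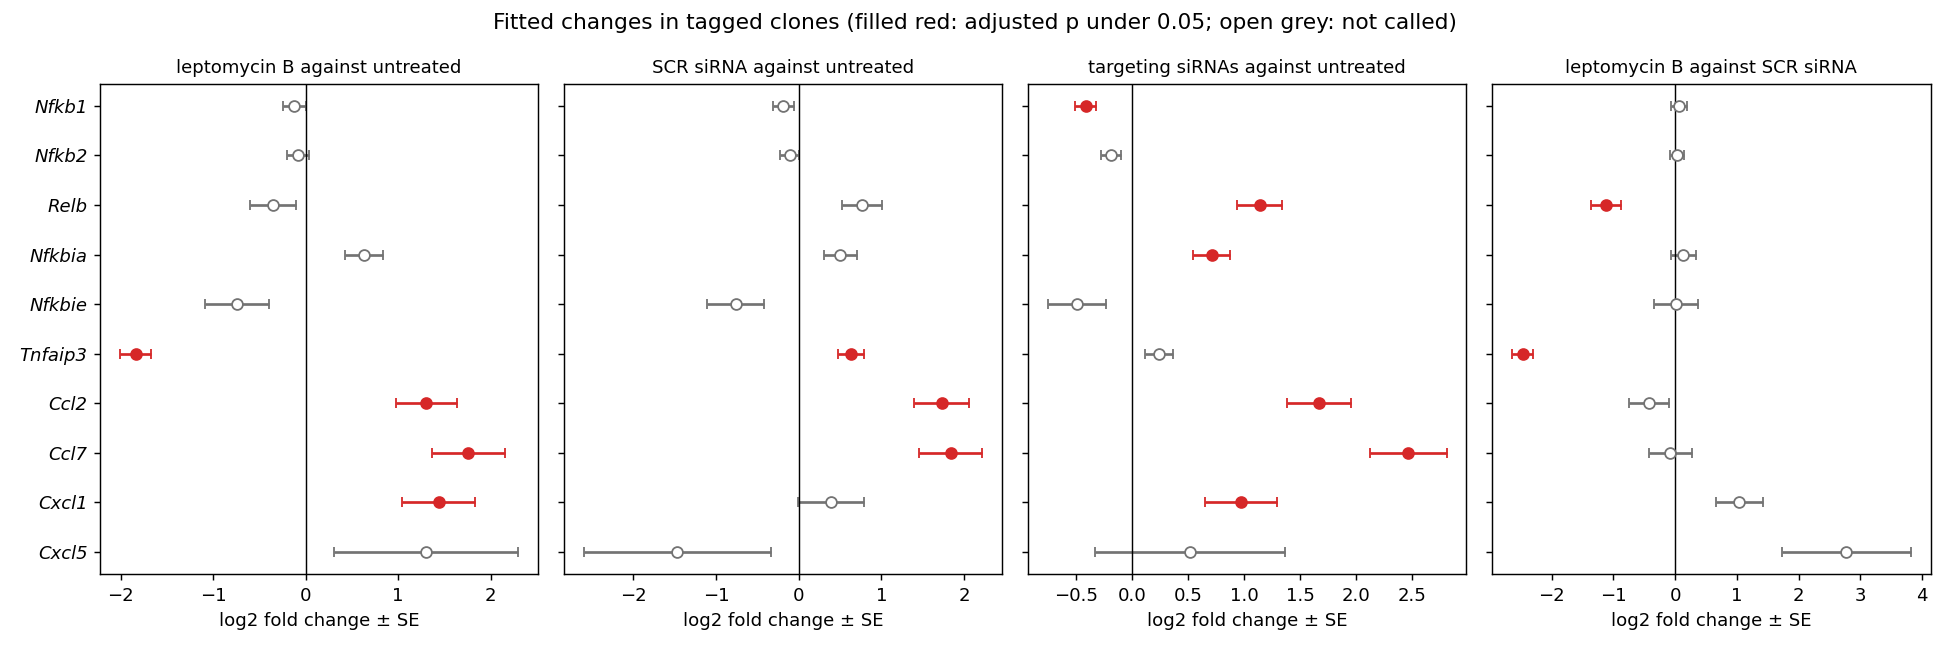
Fitted log2 fold change (horizontal axis, bars are SE) of each gene in 4 comparisons of tagged clones 12 and 14, filled red where the adjusted p was under 0.05. Tnfaip3 lay at -1.84 with leptomycin B and at 0.63 with SCR siRNA, and Ccl7 lay at 1.76 and 1.84.

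Within transfected cells, the siRNAs were compared with SCR and with one another. The tag siRNAs FLAG and HA against SCR in tagged clones called 1 of the 10 genes, where 3.86% of all genes were called. Tnfaip3 fell, from 11.8 and 16.4 CPM with SCR to 7.68 and 12.5 with FLAG and 7.70 and 11.4 with HA in clones 12 and 14 (log2 fold change -0.54 ± 0.13, edgeR adjusted p = 0.0278). The call was lost without the SCR (0.511), FLAG (0.0945) or HA (0.0574) library of clone 12, and without the FLAG (0.0841) or HA (0.104) library of clone 14.

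In the untagged clones Tnfaip3 also stood lower, at 22.6 CPM with SCR against 18.1 and 15.6 with FLAG and HA in clone 25, and at 11.7 against 9.13 and 8.40 in clone 18. There 0 of the 10 genes were called with edgeR, where 2.68% of all genes were. An unadjusted edgeR p under 0.05 was found for 2 of the 10 and for 1817 of all 15099 genes tested. DESeq2 called 1 of the 10, Tnfaip3, and its count over all genes is given with the other alternatives below. The edgeR fit, which did not call Tnfaip3, gave it -0.42 ± 0.13 (edgeR adjusted p = 0.134). The response of tagged minus untagged clones was tested itself, in a test added after the data were seen, and was -0.12 ± 0.19 for Tnfaip3 (edgeR adjusted p = 1), with no member called and 0 at an unadjusted p under 0.05. The share of all genes called in that test was not counted. It therefore cannot be said whether the lack of calls is particular to these genes.

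The cyclin D1 siRNAs against SCR called 0 of the 10 genes with edgeR, where 5.4% of all genes were called. Of the 10, 2 had an unadjusted p under 0.05, Nfkb1 (-0.27 ± 0.10) and Tnfaip3 (-0.29 ± 0.13), as did 3014 of all 15099 genes tested. FLAG-mCherry-HA against mCherry called 0 of the 10 and 0% of all genes with edgeR, with 1390 genes at an unadjusted p under 0.05 and 15 called by DESeq2. Of the members, Cxcl1 alone was under 0.05 unadjusted (-0.84 ± 0.34).

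Each siRNA was also set against the other 4 with a target. The Qiagen siRNA called 2 genes, where 13.7% of all genes were called. Tnfaip3 was higher, at 10.6 and 18.5 CPM in clones 12 and 14 (log2 fold change 0.50 ± 0.12, edgeR adjusted p = 0.011), and Ccl7 was lower, at 2.02 and 10.4 CPM (-0.94 ± 0.31, edgeR adjusted p = 0.0485). The Tnfaip3 call was lost without the Qiagen library of clone 12 (0.0734) or of clone 14 (0.111). The Ccl7 call was lost without the Qiagen (0.632, log2 fold change -0.34), FLAG (0.0851), HA (0.109) or Life (0.0869) library of clone 14 or the Nature library of clone 12 (0.0662).

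The Life siRNA called 1 gene, where 14.2% were called. Nfkb1 was lower, at 60.8 and 43.8 CPM (log2 fold change -0.43 ± 0.10, edgeR adjusted p = 0.00884). That call was lost without the Life library of clone 14 (0.209), which is one of those with over 2% of counts in Rn45s. FLAG, HA and Nature siRNAs called none of the 10 with edgeR, where 1.32%, 4.86% and 9.93% of all genes were called. In these, 1, 0 and 0 members had an unadjusted p under 0.05, as did 1344, 3247 and 3753 of all 15099 genes tested.

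**Figure D4:**
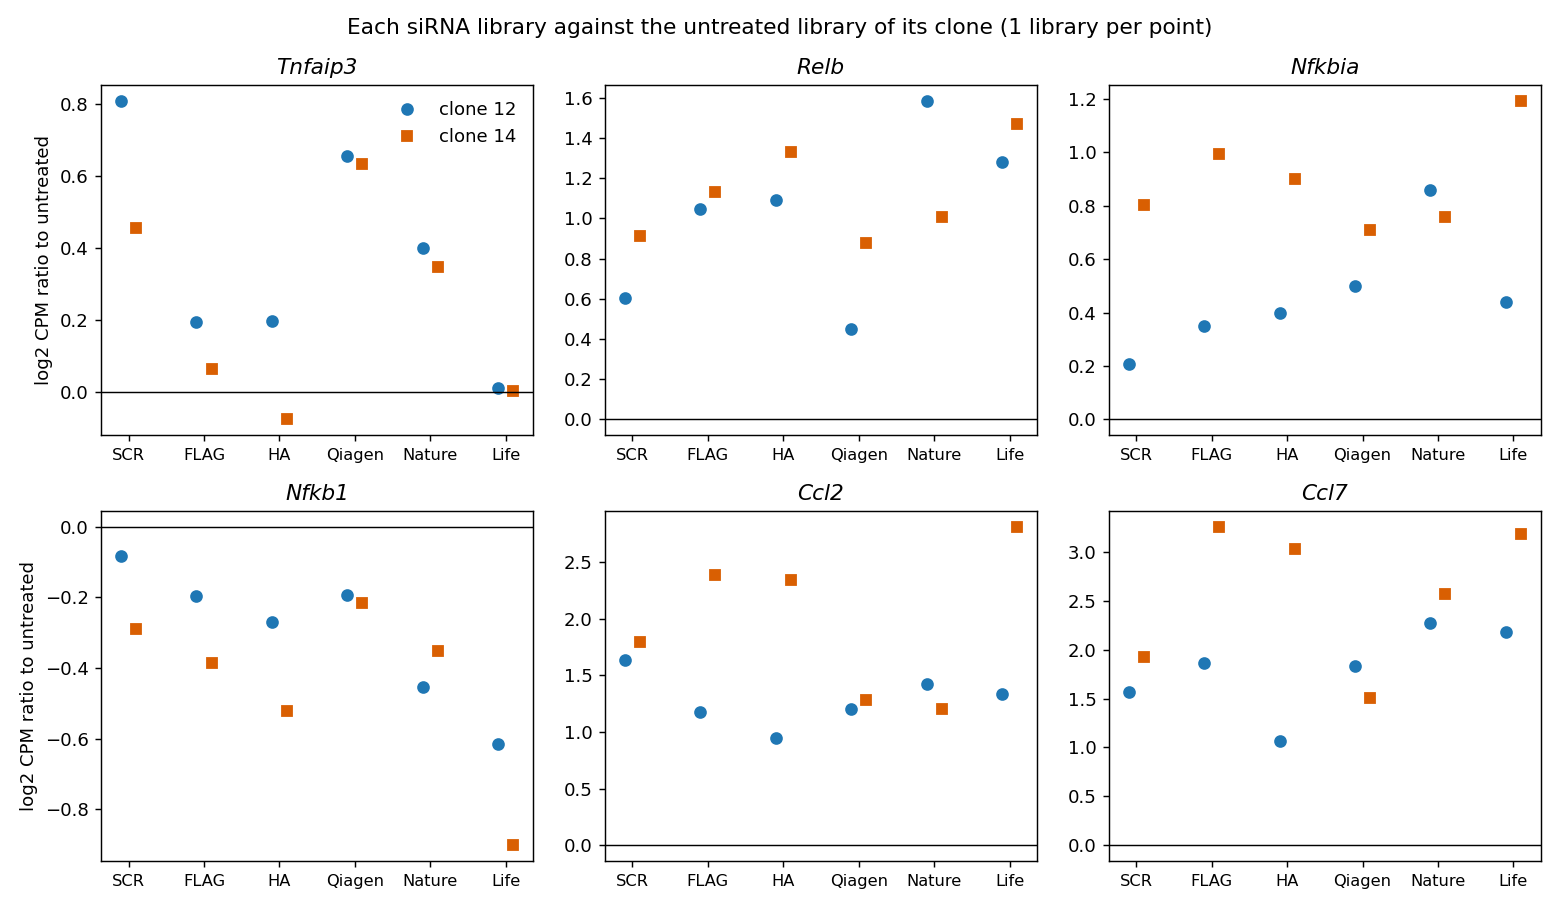
Log2 ratio of CPM in each siRNA library to the untreated library of its clone (vertical axis) for 6 genes and 6 siRNAs, with 1 point for clone 12 and 1 for clone 14. Relb, Nfkbia, Ccl2 and Ccl7 lay above 0 and Nfkb1 below 0 in every siRNA library, and Tnfaip3 was highest with SCR and Qiagen siRNA in both clones.

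The clones differed in these genes, and that is described here without a test because tag, clone and treatment do not vary separately. Ccl7 had medians of 1.93 CPM in clone 12 (8 libraries), 17.9 in clone 14 (8 libraries), 82.5 in clone 18 (3 libraries), 3.26 in clone 25 (3 libraries) and 94.7 in the mCherry lines (6 libraries). Ccl2 followed the same order, with 11.6, 59.6, 109, 19.1 and 147 CPM. The libraries of clones 12 and 25 lay wholly below those of clone 18 in both genes.

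The ratio of Ccl7 to Ccl2 was not constant. Its median was 0.168 in clone 12, 0.242 in clone 14 and 0.176 in clone 25, and 0.816 in clone 18 and 0.673 in its mCherry lines. The ratio ran from 0.193 to 0.497 within clone 14 and from 0.491 to 0.85 within clone 18, so these ranges overlapped. Nfkbie ran from 10.7 to 12.4 CPM in clone 25 and from 0.74 to 4.09 elsewhere. Cxcl1 was highest in clone 25 too, at 3.72 to 8.68 CPM, against 0.516 to 3.07 in the other cells. Nfkbia was low in clone 25, at 17.2 to 17.9 CPM, near the 17.5 CPM of untreated clone 14.

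Other genes of the pathway were counted from lists chosen by role. Upstream, Tnf, Il1a, Il1b and Ltb, which encode ligands, reached at most 4 counts and were not tested. Of all genes tested, 4.29% were called higher and 5.7% lower with leptomycin B, and 1.68% and 3.61% with SCR siRNA. Of 10 tested ligands and receptors, 2 rose and 1 fell with leptomycin B. Tlr3 and Tlr2, Toll-like receptors, rose by 1.22 ± 0.24 and 0.99 ± 0.30 on the log2 scale (edgeR adjusted p = 0.0031 and 0.0437), and Tnfrsf1a, a receptor for TNF, fell by 0.51 ± 0.14 (edgeR adjusted p = 0.024). With SCR siRNA, 0 rose and Tlr4 fell by 0.85 ± 0.21 (edgeR adjusted p = 0.0257).

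Of 22 adaptors and kinases, 1 rose and 3 fell with leptomycin B, beside those shares of 4.29% and 5.7%. Myd88, the adaptor of Toll-like receptors, rose (log2 fold change 0.61), and Traf1 (-1.61), Tab1 (-0.49) and Chuk (-0.42), the gene of IKK-alpha, fell. With SCR siRNA Traf1 rose (1.31) and Traf3 fell (-0.71). Traf1, an adaptor of TNF receptors, stood at 0.569 and 1.05 CPM untreated, 0.133 and 0.363 with leptomycin B and 1.70 and 2.297 with SCR siRNA. It was lower than untreated in both clones with the drug and higher in both with the siRNA. The 0.133 CPM, in clone 12, lay near the floor of 3 counts, which is 0.08 CPM in that library.

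None of 12 other inhibitors and neither Rela nor Rel was called in either comparison by edgeR. At an unadjusted p under 0.05 the inhibitors numbered 3 with leptomycin B and 2 with SCR siRNA, and Rela and Rel 0 in both. Of all 15099 genes tested, 3734 were under 0.05 unadjusted with leptomycin B and 3707 with SCR siRNA. Of 20 other target genes tested, leptomycin B raised Irf1 (1.02) and Ier3 (0.80) and lowered Lif (-0.83), and SCR siRNA raised Ptgs2 (1.43), Ier3 (0.80) and Plau (0.69). None of 19 other chemokines and none of 4 receptors tested was called by edgeR in either. At an unadjusted p under 0.05 there were 1 chemokine and 0 receptors with leptomycin B, and 5 and 1 with SCR siRNA, beside those counts over all genes. The list medians with leptomycin B lay between -0.23 for Rela and Rel and 0.18 for the other inhibitors, against 0.03 over all genes tested. With the targeting siRNAs, 12.9% of all genes tested were called higher and 17.6% lower. Of the 20 other target genes 4 rose and 0 fell, and of the 22 adaptors and kinases 2 rose and 5 fell. Of the 12 other inhibitors 2 rose and 2 fell, and Rel fell while Rela was not called. Of 10 ligands and receptors upstream 0 rose and 2 fell. Among 19 other chemokines 2 rose and 1 fell, and of 4 chemokine receptors 1 rose and 0 fell.

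**Figure D5:**
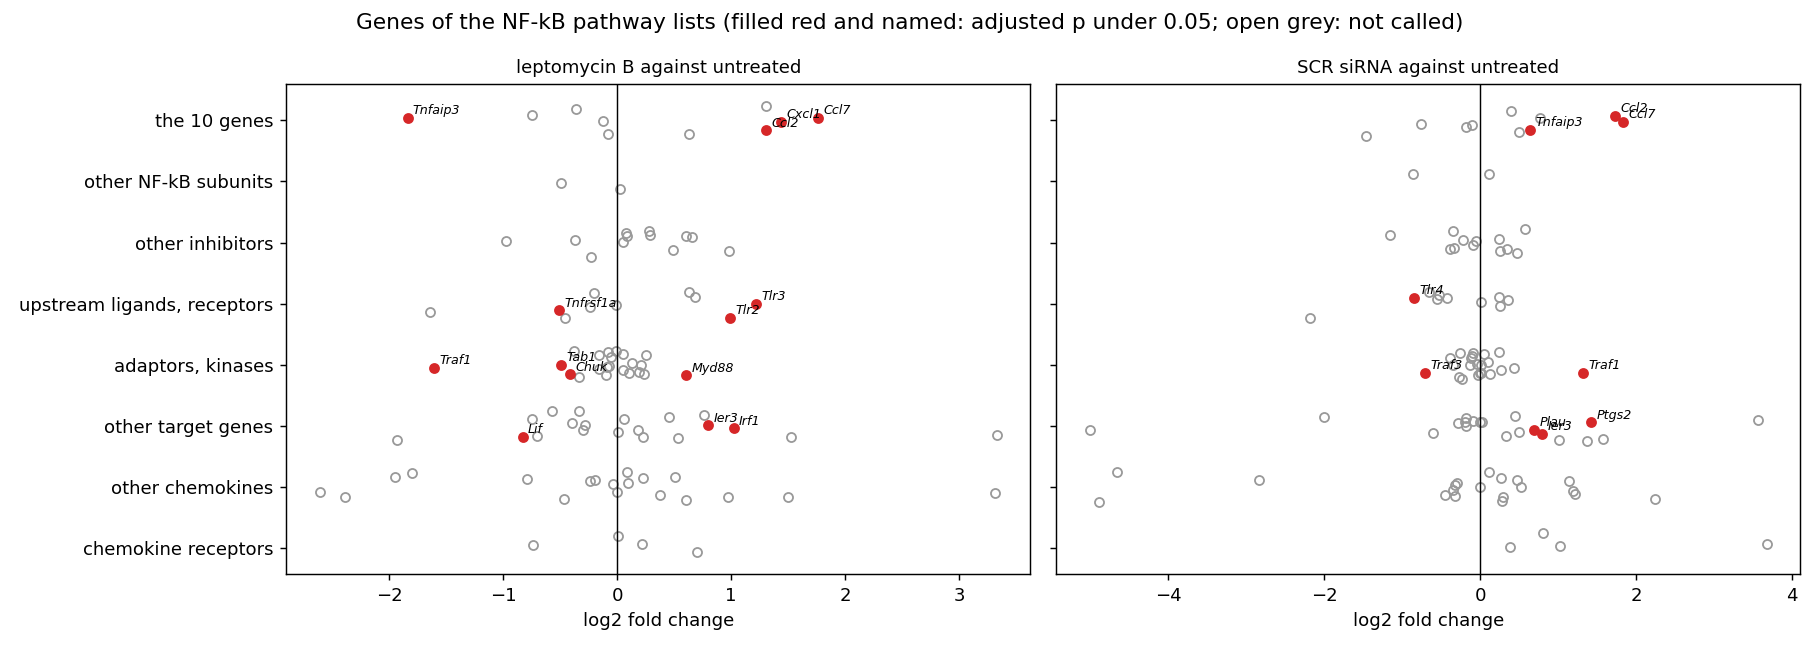
Log2 fold change (horizontal axis) of the 10 genes and of 7 lists of pathway genes with leptomycin B and with SCR siRNA, 1 point per gene with vertical scatter for display only, filled red and named where the adjusted p was under 0.05. Traf1 and Tnfaip3 lay below 0 with leptomycin B and above 0 with SCR siRNA.

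Over the 22 libraries of the 4 clones, after each clone's mean was subtracted, the gene most like Ccl2 was Ccl7 (Pearson r = 0.870, of 11771 genes compared). Tnfaip3 was most like Rtn4ip1 (0.950) and Spata5 (0.929), Relb most like Orai1 (0.949) and Sdf2l1 (0.944), and Nfkb1 most like Smpd4 (0.957) and Gtf3c1 (0.947). Nfkbia was most like Gabarap (0.915) and Ccl7 most like Psmd10 (0.915). Among the members, Nfkb1 ran against Relb (-0.790), Nfkbia (-0.733) and Ccl7 (-0.758). These libraries share treatments, so the correlations describe this set of samples only.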

How the data were processed

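The deposited values are the authors' raw counts of reads per gene. Sequencing used single 100 base reads from poly(A) RNA in a strand-marking kit, per the labels' protocols. The submitters' processing notes name mm10, HTSeq 0.6.1p1, Bowtie2 2.2.3, TopHat2 2.0.13, CASAVA 1.8.2 and FastQC. Neither the strand setting of the counting nor the annotation is stated there, so genes that overlap or lie antisense could have shared reads. Titles carry an n of 3 or 4 that the labels do not explain, and every library was treated as 1 sample. The 22 rows lacking a gene ID stayed in.

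All 28 libraries entered 1 edgeR fit (version 4.0.16, R 4.3.3). Low genes were removed with filterByExpr, sizes were scaled by TMM, and the robust quasi-likelihood model had 17 coefficients, 11 residual degrees of freedom and the clone, or matched mCherry pair, as a block. A gene was called when its p, adjusted by Benjamini-Hochberg over 15099 genes, was under 0.05. SE is the log2 fold change over the square root of F. Libraries sharing a clone deviated together from their group means (lowest correlation 0.834 over 28 pairs in each tagged clone). Each tagged group pairs clone 12 with clone 14, so the deviations of one mirror those of the other and are not separate evidence. Of 378 pairs of libraries none was as close as sampling noise allows (chi-square over its degrees of freedom was at least 13). The fit was also run on counts simulated from its own design and estimated spread, which cannot test those assumptions. The members, pathway lists and markers were chosen with earlier results of these data known. All members are named, and from each list the called genes with the smallest p, up to 4 per comparison. Alternatives were RLE size factors, other filters, no block, fewer libraries and DESeq2 1.42.0.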

Additional observations from a re-analysis of the deposited data

Results flagged for a closer look

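In 3 cases all libraries of one kind of siRNA, tag or cyclin D1, lay on one side of the SCR library in tagged clone 12 and on the other side in clone 14. For Nfkbie, the 2 tag siRNA libraries averaged 1.17 above SCR in clone 12 and -0.65 in clone 14 on the log2 scale, a difference of -1.82. For the 3 cyclin D1 siRNA libraries of the same gene the averages were 1.38 and -0.44, a difference of -1.82. For Ccl2, the tag siRNA libraries averaged -0.58 in clone 12 and 0.57 in clone 14, a difference of 1.14, whereas the Qiagen and Nature libraries lay below SCR in both clones. These differences between clones were not tested. Both Nfkbie comparisons use the SCR library of clone 12, which held 62 counts of the gene and had the highest total of all libraries.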

How the results depend on the processing

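Of 19 member results that were called, 268 alternatives kept the direction in every case, 210 kept the call and 58 lost it. Of 25 that were not called, 276 alternatives gave 7 calls and 19 changes of sign, most of them in values near 0. The fall of Tnfaip3 with leptomycin B lost its call in 1 of its 10 alternatives, the fit without the clone block. Alternatives that filtered out Cxcl5 gave no value for it. The cause of these changes was not tested. Each treatment of the tagged clones has 1 library per clone, and Cxcl5 has at most 25 counts in any library.

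Without the replicate block, that is with the pairing by clone ignored, the genes called numbered 74 for leptomycin B, 10 for SCR siRNA and 49 for targeting siRNAs, each against untreated, 244 for leptomycin B against SCR, 24 for tag siRNAs and 46 for cyclin D1 siRNAs against SCR in tagged clones, and 10 for tag siRNAs in untagged clones. They numbered 2 for FLAG, 7 for HA, 132 for Qiagen, 165 for Nature and 191 for Life siRNA. In the fits without the block, 1 member was called for leptomycin B against SCR, and 0 for the 3 comparisons with untreated, tag siRNAs in tagged clones, Qiagen and Life.

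With only the libraries of each comparison, genes called were 4494 for leptomycin B against untreated, 1285 for leptomycin B against SCR, 3283 for tag and 65 for cyclin D1 siRNAs in tagged clones, 80 for tag siRNAs in untagged clones, 92 for FLAG and 374 for HA, and members called were 2 for tag siRNAs in tagged clones and 1 for Qiagen, where 1575 genes were called. DESeq2 called 2263 genes for leptomycin B and 1427 for SCR siRNA against untreated, 1024 for tag and 1280 for cyclin D1 siRNAs in tagged clones, 691 for tag siRNAs in untagged clones, 15 for the mCherry lines, 454 for FLAG and 1415 for HA. It called 1 member for tag siRNAs in untagged clones and 4 for Qiagen, where it called 2896 genes. With no filter, 2 genes were called for the mCherry lines, and 1 member and 1715 genes for Qiagen. Without the libraries over 2% Rn45s, 377 genes and 0 members were called for tag siRNAs in tagged clones, 124 genes for HA, and 746 genes and 0 members for Life.

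Leaving out 1 library at a time gave 560 to 1088 genes and 1 to 4 members called for leptomycin B against untreated, 99 to 526 and 0 to 4 for SCR siRNA, 570 to 5245 and 2 to 6 for targeting siRNAs, and 1244 to 2116 and 1 to 2 for leptomycin B against SCR. It gave 113 to 804 and 0 to 2 for tag siRNAs and 97 to 1023 and 0 to 1 for cyclin D1 siRNAs in tagged clones, and 27 to 380 genes for tag siRNAs in untagged clones. Genes called ran from 20 to 227 for FLAG, 56 to 1362 for HA, 488 to 2819 for Qiagen (members 0 to 3), 423 to 1862 for Nature and 544 to 2682 for Life (members 0 to 2).

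Log2 fold changes that changed sign, none of them called, were these. Leaving out 1 library gave -1.22 to 2.09 for Cxcl5 and -0.24 to 0.0494 for Nfkb2 with leptomycin B, -0.0851 to 1.11 for Cxcl1 with SCR siRNA and -2.12 to 1.19 for Cxcl5 with targeting siRNAs. For leptomycin B against SCR it gave -0.36 to 0.30 for Ccl7, -0.15 to 0.16 for Nfkb2, -0.17 to 0.37 for Nfkbia and -0.65 to 0.98 for Nfkbie. In that comparison Nfkb2 was -0.0036 with only its own libraries, and Nfkbie was -0.066 without the block, -0.0151 with DESeq2, -0.0091 with RLE size factors and -0.0017 with no filter.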
